A study of Mus musculus with 4 samples.

Results

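The genes of MHC class II presentation were followed here in the sciatic nerve of a mouse model of transthyretin amyloid neuropathy. Members were the 9 genes listed under the symbols H2-Aa, H2-Ab1, H2-Eb1, Cd74, H2-DMa, H2-DMb1, H2-Oa, H2-Ob and Ciita, matched by symbol and chosen with earlier results of these data known, and all 9 were found among the 50593 genes of the deposited table. RNA of sciatic nerve was sequenced on the Ion Torrent platform from mice of strain 129S1/SvImJ at 6 months of age. HSF V30M mice carry a human TTR V30M transgene in an endogenous Ttr-null background. HSF WT mice served as controls, and both groups are heterozygous for a deletion of Hsf1, the heat shock transcription factor. The labels name 2 mice in each group and the methods give n = 4, without saying whether this is per group. The table holds 1 level per gene and group in FPKM, fragments scaled to transcript length and to sequencing depth, estimated by the authors over the libraries of the group. The spread between mice was therefore not known, no p-value could be computed, and every difference below is a difference between a pair of pooled estimates.

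MHC class II molecules are pairs of an alpha and a beta chain that carry peptides of ingested proteins to the cell surface, where CD4+ T cells read them. In the endoplasmic reticulum the pair is plugged by the invariant chain (Cd74), which is cut down to a short peptide in endosomes. H2-DM exchanges this peptide for others, H2-DO restrains H2-DM, and Ciita, the class II transactivator, switches on the genes through promoter elements named the S, X and Y boxes. Macrophages, dendritic cells and B cells are the usual class II cells, and resident macrophages are the ones best known in peripheral nerve.

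The targeted genes were read first, as a check of the labels. Mouse Ttr, which the HSF V30M background should lack, had 6.10 FPKM in HSF V30M and was listed at 0 in HSF WT, with 3 fragments worth 0.197 FPKM there. The HSF V30M value goes against the label, and no fragment was counted in HSF WT, which is not described as lacking Ttr. Fragments of the human transgene counted as mouse Ttr and an exchange of the groups cannot be told apart here, and an exchange would turn every direction below. HSF V30M and HSF WT therefore stand throughout for the groups so labelled. Hsf1 had 7.94 FPKM in HSF V30M and 15.0 FPKM in HSF WT, although both groups carry its deletion. The 2 densest steps among low values were read as 2 libraries per group. Read so, depth differed by 1.18-fold within HSF V30M and 1.35-fold within HSF WT, and the deepest of HSF V30M was 1.21 times that of HSF WT. The search always returns 2 separate steps, so it is no test of whether the depths differ. The reads of these 129S1/SvImJ mice were aligned to the genome of C57BL/6J, and how sequence differences between the strains act on class II genes, which vary between strains, was not tested.

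Promoters of class II genes are shown because the S, X and Y boxes are known as a shared module of such genes. Ciita acts through these boxes, and whether its own promoter holds them was not examined. RefSeq windows of assembly GRCm38.p6, running from 250 bases before to 50 bases after the annotated start, were given for 6 of the 9 members, H2-Aa, H2-Eb1, H2-DMa, H2-DMb1, H2-Oa and H2-Ob. A window was also given for H2-DMb2, a near copy of H2-DMb1 that is no member. The 130 bases before the start are printed below for those with a Y box core in them, 5′ to 3′ on the strand of the gene. Capitals mark matches on either strand to the X box core ACNGATG and the Y box core ATTGG.
H2-Aa: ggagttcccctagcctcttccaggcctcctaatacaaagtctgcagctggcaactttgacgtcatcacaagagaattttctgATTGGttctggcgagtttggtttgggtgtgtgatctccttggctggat
H2-Eb1: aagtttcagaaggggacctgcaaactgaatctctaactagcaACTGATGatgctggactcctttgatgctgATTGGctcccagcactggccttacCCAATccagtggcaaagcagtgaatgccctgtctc
H2-DMb1: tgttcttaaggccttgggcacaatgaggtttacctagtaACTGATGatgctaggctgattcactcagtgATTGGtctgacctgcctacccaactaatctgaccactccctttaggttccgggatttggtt
H2-Oa: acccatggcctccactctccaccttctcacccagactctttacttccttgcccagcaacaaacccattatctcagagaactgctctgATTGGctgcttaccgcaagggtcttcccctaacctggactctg
H2-Ob: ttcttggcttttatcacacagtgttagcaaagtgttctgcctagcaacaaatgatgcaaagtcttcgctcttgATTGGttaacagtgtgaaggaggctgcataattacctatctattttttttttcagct
H2-DMb2: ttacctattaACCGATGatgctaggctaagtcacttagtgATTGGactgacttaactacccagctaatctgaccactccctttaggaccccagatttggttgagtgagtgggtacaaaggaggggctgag

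The sequences of H2-Aa (chr17:34287824-34287953, minus strand), H2-Eb1 (chr17:34305737-34305866) and H2-DMb1 (chr17:34153061-34153190) belong to genes of near equal level in both groups or a modest difference, as given below. Those of H2-Oa (chr17:34092249-34092378), H2-Ob (chr17:34238775-34238904) and H2-DMb2 (chr17:34145119-34145248) belong to the genes that were much lower in HSF V30M. The last 5 lie on the plus strand. The Y box core was found in 6 of 6 members with a window. It was in 6 of their 7 windows, against 37.4% of all 32851 promoter windows. Counted from the annotated start, it lay at -48 in H2-Aa, -43 in H2-Oa, -57 in H2-Ob, -61 in H2-DMb1 and -90 in H2-DMb2. H2-Eb1 held it on each strand, the match nearest the start at -35. H2-DMa held it only at -198 in the second of its 2 windows, outside the stretch printed for the others. The X box core was found in 4 of 6 members and 4 of their 7 windows, against 9.85% of all windows. It lay at -88 in H2-Eb1, -91 in H2-DMb1 and -120 in H2-DMb2, and outside the printed stretch at -137 in H2-Oa and -232 in H2-Aa. The matches in H2-Oa and H2-Aa lie farther from the Y box core of their gene than those in the others. Whether they belong to the shared module was not tested. A longer string, TGATTGG, was read in the members after their sequences were seen, and contains the Y box core. It was in 5 of 6 members and 5 of their 7 windows, and in 7.82% of all windows. The Y box core was thus near the start of H2-Oa and H2-Ob, which differed most between the groups, and of H2-Aa, which differed least. The exact letters of the X box core were not found in H2-Ob or in H2-DMa. An exact search misses near variants, such as acaaatg in the sequence printed for H2-Ob. Whether H2-Ob or H2-DMa holds an X box was not tested. A match is a string of letters and was not tested as a binding site.

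Most members differed by less than 1.5-fold between the groups, and the pair coding for H2-DO stood apart from the others. On the scale log2((HSF V30M + 1)/(HSF WT + 1)), 7 members were lower and 2 higher in HSF V30M, with a median of -0.27, beside a median of 0.00 over the 15620 genes whose mean FPKM was 1 or more. H2-Oa and H2-Ob were lower by more than 1.5-fold, and no member was higher by more than that. Over the 15620 genes, 8.44% were lower and 8.22% higher past the same fold. The other 7 members had plain FPKM ratios, HSF V30M over HSF WT, between 0.759 and 1.12. Summed over the members, FPKM came to 799 in HSF V30M against 889 in HSF WT. In RNA of a whole nerve, fewer cells of a type and less RNA per cell cannot be told apart.

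**Figure D1:**
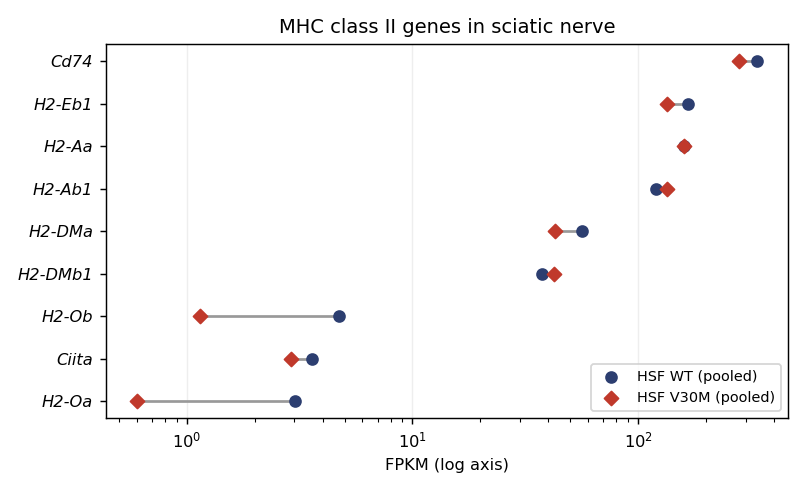
FPKM of the 9 class II members in the pooled HSF V30M and HSF WT estimates, on a log axis. 1 point per gene and group is drawn and no error bar, since the table has 1 value per group; the points nearly meet for the classical chains, Cd74 and the H2-DM genes and lie apart for H2-Oa and H2-Ob.

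The classical chains, of which H2-Aa and H2-Ab1 pair as I-A and H2-Eb1 is the beta chain of I-E, were among the abundant messages of the nerve in both groups. H2-Aa, the I-A alpha chain (ENSMUSG00000036594, chr17:34282744-34287823), stood at 159.9 FPKM in HSF V30M and 160.2 FPKM in HSF WT. The plain ratio was 0.999, with an interval of 0.935 to 1.07. These intervals are exact 95% limits from the number of fragments that the values imply, and they cover counting error only. H2-Ab1, the I-A beta chain (ENSMUSG00000073421, chr17:34257689-34269419), had 134 FPKM in HSF V30M and 120 FPKM in HSF WT, a ratio of 1.12 with limits of 1.02 and 1.22. H2-Eb1, the I-E beta chain (ENSMUSG00000060586, chr17:34305867-34316674), went the other way, with 135 FPKM against 166 FPKM and a ratio of 0.812 (0.769 to 0.857). The partners H2-Aa and H2-Ab1 thus held a ratio to each other of 1.19 in HSF V30M against 1.34 in HSF WT. Together the classical chains summed to 429 FPKM in HSF V30M and 446 FPKM in HSF WT, and gave 53.7% and 50.1% of the FPKM of all members. The intervals of H2-Ab1 and H2-Eb1 leave out a ratio of 1, but whether these differences exceed the spread between mice could not be examined.

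Cd74 codes for the invariant chain (ENSMUSG00000024610, on chromosome 18) and was the most abundant member. It had 280.1 FPKM in HSF V30M and 338 FPKM in HSF WT, which placed it as gene 376 and gene 309 of the table in order of level. The ratio was 0.829, with counting limits of 0.799 and 0.860. For each H2-Ab1 message, 2.09 of Cd74 were estimated in HSF V30M and 2.82 in HSF WT, per length. The table gives 1 locus for Cd74 and a second gene, so some of its fragments may have been shared between them.

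Both chains of H2-DM, the editor of the bound peptide, were measured at similar levels and differed between the groups in opposite directions. H2-DMa (ENSMUSG00000037649, chr17:34119541-34139101) had 42.9 FPKM in HSF V30M and 56.5 FPKM in HSF WT, a ratio of 0.759 (0.688 to 0.838). Its annotated span overlaps Brd2 on the other strand, though the locus given for it in the table does not. H2-DMb1 (ENSMUSG00000079547, chr17:34153072-34160230) had 42.2 FPKM and 37.6 FPKM, a ratio of 1.12 (1.02 to 1.24). Per 100 of H2-DMb1, H2-DMa came to 102 in HSF V30M against 150.3 in HSF WT, in FPKM. Summed, the pair came to 85.1 FPKM in HSF V30M and 94.2 FPKM in HSF WT.

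Both chains of H2-DO, the inhibitor of H2-DM, were low in HSF V30M. H2-Oa, the alpha chain (ENSMUSG00000024334, chr17:34092340-34095234), had 0.600 FPKM in HSF V30M and 3.03 FPKM in HSF WT, so that the HSF WT level was 5.05 times the HSF V30M level, with counting limits of 2.55 and 10.9. The estimate rested on 11 to 13 fragments in HSF V30M and 41 to 56 in HSF WT. H2-Ob, the beta chain (ENSMUSG00000041538, chr17:34238903-34254414), had 1.14 FPKM in HSF V30M and 4.74 FPKM in HSF WT, a ratio of HSF WT to HSF V30M of 4.16 (2.82 to 6.28). It rested on 35 to 71 fragments in HSF V30M and 106 to 244 in HSF WT. Written as HSF V30M over HSF WT, the counting intervals were 0.0918 to 0.392 for H2-Oa and 0.159 to 0.355 for H2-Ob, and both lay below the intervals of all the other members, of which the lowest limit was 0.459 for Ciita. On the log2(FPKM + 1) scale the differences were -1.33 for H2-Oa and -1.42 for H2-Ob, and 455 (2.91%) and 424 (2.71%) of the 15620 genes had a value as low or lower. H2-Oa reached a mean FPKM of 1 only through HSF WT. The table places H2-Oa in 1 locus with 2 other genes, H2-Pa and BC051537, both listed at 0.

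**Figure D2:**
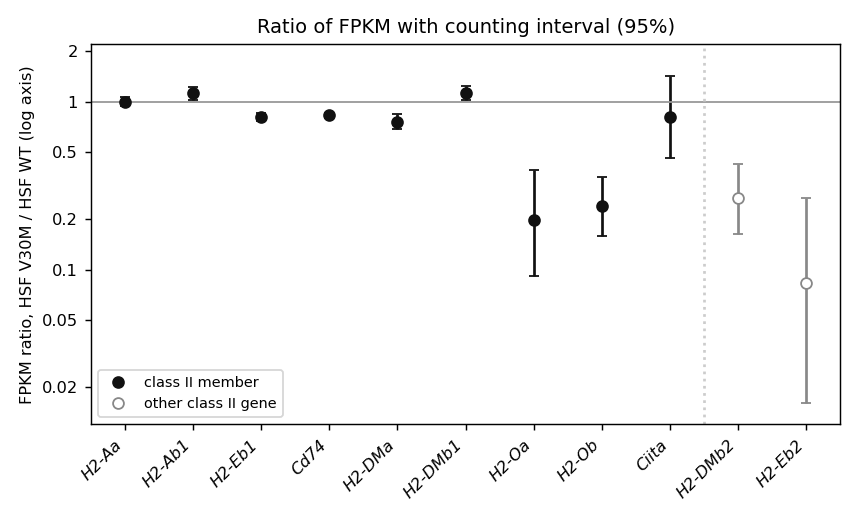
Plain FPKM ratio, HSF V30M over HSF WT, on a log axis for the 9 members (filled) and the further class II genes H2-DMb2 and H2-Eb2 (open), with bars giving the exact 95% limits for counting error only. H2-Oa at 0.198 and H2-Ob at 0.240 lie below the members near a ratio of 1.

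Set against its target, H2-DO was a small fraction of H2-DM in both groups and a smaller one in HSF V30M. Per 100 of H2-DMa, H2-Oa came to 1.40 in HSF V30M against 5.36 in HSF WT, in FPKM. Per 100 of H2-DMb1, H2-Ob came to 2.70 and 12.6. The H2-DO pair summed to 1.74 FPKM in HSF V30M and 7.77 FPKM in HSF WT, or 0.218% and 0.874% of the FPKM of all members. H2-Ob stood at 1.90 times H2-Oa in HSF V30M and 1.57 times in HSF WT, so the ratio of the partners to each other differed less than their levels did.

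Ciita, the class II transactivator (ENSMUSG00000022504, on chromosome 16), was a low message. It had 2.89 FPKM in HSF V30M and 3.58 FPKM in HSF WT, a ratio of 0.808 with limits of 0.459 and 1.43, which include 1. Its 8 annotated transcripts differ in length, so that the value may stand for 29 to 424 fragments in HSF V30M and 26 to 432 in HSF WT. A difference of this size in Ciita was not detectable at the smallest of these depths.

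Of the other class II genes of the mouse H2 region, those with a value above 0 were also lower in HSF V30M. H2-DMb2, a second beta chain gene of H2-DM, had 1.03 FPKM in HSF V30M and 3.86 FPKM in HSF WT, a ratio of 0.267 (0.163 to 0.423). H2-Eb2, a beta chain gene of the I-E kind, had 0.05 FPKM and 0.604 FPKM, resting on 3 to 4 and 29 to 40 fragments. H2-Ea-ps, an alpha chain gene of the I-E kind, is annotated as a polymorphic pseudogene. It was listed at 0 in both groups, where 3 fragments would have given 0.168 and 0.232 FPKM. Whether an I-E pair is made in these mice was not tested. H2-DMb2 is close to H2-DMb1 in sequence, with 92.8% identity over 1231 aligned bases of their transcripts and a longest identical run of 221 bases. Of the stretches of 100 bases in H2-DMb2, 13.5% also occur in H2-DMb1, so fragments from there could be counted for either gene. H2-DMb2 came to 2.44 per 100 of H2-DMb1 in HSF V30M and 10.3 in HSF WT, and the split between the copies is uncertain. H2-Eb2 and H2-Eb1 had 77.7% identity and no identical stretch of 100 bases.

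Along the class II region, H2-Oa and H2-Ob, the members past 1.5-fold, stood apart from each other. From the start of H2-Oa to the end of H2-Eb1, chr17:34092340-34316674, 13 protein-coding genes are annotated, and 7 of them are members. Counted from the start of H2-Ab1, H2-Oa begins at -165 kb and H2-Ob at -18.8 kb, with H2-DMa, H2-DMb1 and others between them. H2-DMb2, at -1.26, lies beside H2-DMa at -0.39 and H2-DMb1 at 0.16. The neighbours of H2-Ob on either side, Tap2 and H2-Ab1, had log2 differences of 0.09 and 0.16. Brd2, a chromatin reader gene beside H2-DMa, had 74.8 FPKM in HSF V30M and 76.5 FPKM in HSF WT. The peptide transporter and immunoproteasome genes of class I presentation lie in the same stretch, and their log2 differences ranged from -0.66 for Tap1 to 0.09 for Tap2. Psmb9 and Tap1 share 1 locus in the table, as do Psmb8 and Tap2.

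**Figure D3:**
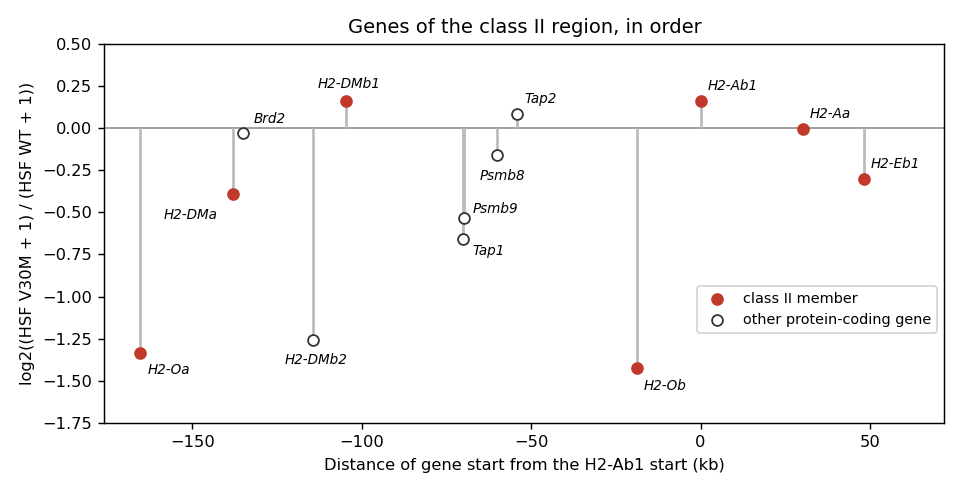
Log2 difference, HSF V30M over HSF WT on FPKM + 1, of the 13 protein-coding genes of the class II region against the distance of each gene's start from that of H2-Ab1, in kb, with members filled and other genes open. The lowest points, H2-Ob (-1.42), H2-Oa (-1.33) and H2-DMb2 (-1.26), are separated by genes closer to 0.

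The factors that bind the class II promoters with Ciita differed in both directions. Of the 7 genes of this group, which code for the RFX complex on the X box, NF-Y on the Y box and Creb1, 5 were lower and 2 higher, none past 1.5-fold (8.44% and 8.22% of all genes), and their median was -0.01. Rfx5 had 7.99 FPKM in HSF V30M and 8.03 FPKM in HSF WT, and Rfxap had 22.2 and 24.3 FPKM. Within NF-Y, Nfya was at 22.1 FPKM against 15.1 FPKM and Nfyc at 22.7 FPKM against 30.6 FPKM, log2 differences of 0.52 and -0.42. On the interferon gamma route, the main inducer of Ciita, 4 of 7 genes were lower and 2 higher, none past 1.5-fold, with a median of -0.16. Irf1, a factor that acts on the Ciita promoter, had 28.8 FPKM in HSF V30M and 43.1 FPKM in HSF WT. Ifng itself was listed at 0 in both groups, and 3 fragments would have given 0.140 and 0.193 FPKM.

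The enzymes that prepare peptides and cut the invariant chain were mostly lower by small folds. Of 7 genes, 6 were lower and 1 higher in HSF V30M, and the median was -0.31. Only Ctss passed 1.5-fold, beside 8.44% of all genes lower past it. It codes for cathepsin S, which makes the last cuts of the invariant chain in antigen-presenting cells, and had 44.4 FPKM in HSF V30M and 68.2 FPKM in HSF WT, a ratio of 0.651 (0.599 to 0.707). Ctsl was at -0.47, Ifi30, the lysosomal thiol reductase, at -0.38, Ctsb at -0.31 and Ctsd at -0.25 on the log2 scale, and Sppl2a, the protease that clears the membrane stub of Cd74, at 0.12. In the group of class II turnover, March1, the ubiquitin ligase that removes class II molecules from the surface, had 0.960 FPKM in HSF V30M and 1.89 FPKM in HSF WT. Its relative March8 had 26.1 and 24.6 FPKM, and Cd83, which protects class II molecules from March1, had 4.25 and 6.34 FPKM. None of these 3 passed 1.5-fold on FPKM + 1.

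Schwann cell genes, which mark peripheral nerve, were abundant in both groups. Sox10, the transcription factor of the lineage, had the lowest level of the 6, at 75.7 FPKM in HSF V30M and 54.8 FPKM in HSF WT. Markers of class II cells differed by cell type. All 11 B cell genes were lower in HSF V30M, with a summed level of 5.05 FPKM against 36.0 FPKM, a range of 0.02 to 1.26 FPKM against 0.807 to 8.49 FPKM, and a median log2 difference of -1.15 (-2.75 without a pseudocount). Several of these genes rested on a few fragments. Cd79a, a signalling chain of the B cell receptor, had 0.650 FPKM in HSF V30M and 7.09 FPKM in HSF WT. None of these genes was at 0 in either group. The ratio of the summed B cell genes was 0.140, that of the summed T cell genes 0.213 and that of the summed H2-DO pair 0.224, beside 0.961 for the classical chains. H2-DO is known for its presence in B cells, and the part of these cells in the H2-DO values was not tested.

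Macrophage genes were split. Of 13, 9 were lower and 4 higher, with a median of -0.45 and a summed level of 301 FPKM in HSF V30M and 494 FPKM in HSF WT. C1qb and C1qc, parts of complement C1q, were lower past 1.5-fold at -1.23 and -1.19, as were Cd68 at -0.95 and Aif1 at -0.77. These 4 of 13 genes stand beside 8.44% of all genes. Adgre1, which codes for F4/80, had 7.98 FPKM against 7.70 FPKM, Csf1r, the receptor for the main macrophage growth factor, 31.2 against 36.0 FPKM, and Cd163 14.4 against 13.0 FPKM. None of the 13 was at 0. Of 10 dendritic cell genes 8 were lower, with a summed level of 24.7 FPKM against 39.1 FPKM and a median of -0.27 (-0.55 without a pseudocount). Itgax, which codes for CD11c, was at -1.05 and Irf8 at -0.92, while Flt3, a receptor that dendritic cells need, was low in both groups at 0.360 and 0.337 FPKM. The locus given for Irf8 is that of 210 genes, so some of its fragments may have been shared between them. T cell genes summed to 2.40 FPKM in HSF V30M and 11.3 FPKM in HSF WT over 6 genes, of which 5 were lower and 1 higher. Their median was -0.93 (-2.41 without a pseudocount). The list holds Cd8a beside Cd4, so it is not limited to the T cells that read class II molecules. Cd4 stood at 0.520 against 3.88 FPKM, Cd3e at 0.320 against 2.29 FPKM and Cd3d at 0.510 against 0.486 FPKM. Of 6 neutrophil genes, 5 were higher past 1.5-fold, beside 8.22% of the 15620 genes. Csf3r, the receptor for the neutrophil growth factor, was lower past it at -0.96, beside 8.44% of those genes. The median of the list was 1.76. Ltf, among the higher genes, rested on as few as 11 fragments in HSF V30M and 3 in HSF WT. Its counting interval of 0.610 to 12.9 includes a ratio of 1. The part of each cell type in the level of the class II members was not tested.

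**Figure D4:**
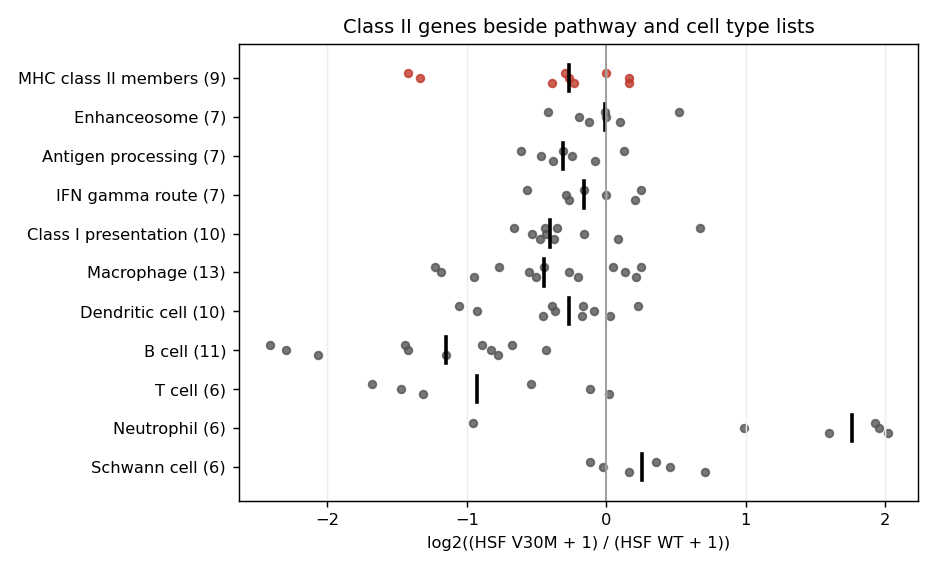
Log2 difference, HSF V30M over HSF WT on FPKM + 1, for each gene (points) and the median (bar) of the class II members and the pathway and cell type lists. The members have a median of -0.27 with H2-Oa and H2-Ob far below it, the B cell list a median of -1.15 and the neutrophil list one of 1.76.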

How the data were processed

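Libraries of sciatic nerve from the HSF V30M and HSF WT groups were sequenced on the Ion Torrent platform. Alignment was to the Ensembl genome GRCm38 and the comparison was run in Cuffdiff by the authors, whose processing notes also name STAR and Cufflinks. Tool versions and the release of the gene annotation are not given in the sources used here. The deposited FPKM values, written with decimal commas, are 1 estimate per gene and group, made by the authors over the libraries of the group. The table also holds the authors' log2 fold change, test statistic, p-value, q-value and call, which were not used.

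Levels were read by column, and 23 genes with too many alignments were left out. Ratios were taken as log2((HSF V30M + 1)/(HSF WT + 1)), with a pseudocount of 1, and genes whose mean FPKM was 1 or more were counted as past the fold beyond 1.5. Where no test across mice is possible, these counts stand beside the share of all genes. The worth of 1 fragment was read from genes with 1 transcript. The 2 densest steps of each group were taken as its worths. In HSF WT, 98.5% of 870 values of about 1 fragment or less lay within 2% of a worth. In HSF V30M it was 89.0% of 318 within 5%. The worths were read from these same values, and multiples of them were not checked. Fragment numbers were computed over the shortest to longest coding transcripts, with an assumed fragment length of 200 bases (SD 80). Ratios have exact (Clopper-Pearson) 95% limits from the smallest of these numbers, for counting error only, since PCR copies are not independent molecules. Positions and lengths come from GENCODE release M21, which held 50369 of the 50593 gene IDs, and promoters from RefSeq. Symbols turned into dates in the table were matched by gene ID.

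The text names the members, the fixed lists (class II genes, enhanceosome, antigen processing, turnover, interferon gamma route, costimulation, Cd74 as a receptor, class I presentation and 10 cell type lists) and the protein-coding genes between H2-Oa and H2-Eb1. Members and lists were chosen with earlier results of these data known. Steps were tested on simulated data. Alternatives were another pseudocount, median-of-ratios scaling, other minimum levels and a fold of 2. Work was done in Python 3.11.15 with Biopython 1.88, scipy 1.17.1, pandas 2.3.3, matplotlib 3.10.9 and numpy 2.4.6.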

Additional observations from a re-analysis of the deposited data

How the results depend on the processing

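Under a pseudocount of 0.1, median-of-ratios scaling, no minimum level, a fold of 2 and no pseudocount (the last chosen after seeing the data), H2-Oa and H2-Ob stayed past the fold and no other member did. The log2 difference of H2-Oa ranged from -2.34 to -1.33 and that of H2-Ob from -2.06 to -1.42, the lower end without a pseudocount for both. A minimum mean FPKM of 5 leaves out H2-Oa, H2-Ob and Ciita. It left 6 members, of which 4 were lower and 0 past the fold, with a median of -0.14. Over all genes, 2603 were past the fold in either direction, and 1378 with the minimum of 5, 1237 with a fold of 2 and 1315 among protein-coding genes only (added after seeing the data), where 5.32% were lower and 5.03% higher past the fold. No paired analysis was possible because each group has a pooled FPKM only, and for the same reason no mouse could be left out. Medians of lists of low genes moved without a pseudocount, from -1.15 to -2.75 for B cell genes, from -0.93 to -2.41 for T cell genes and from -0.27 to -0.55 for dendritic cell genes. For lymph node genes the median went from -0.37 to -0.62, but Madcam1, at 0 in HSF V30M, was left out of the latter. Few fragments limit H2-Oa, Ciita, H2-DMb2 and H2-Eb2 among class II genes, and many B cell, T cell and dendritic cell genes more.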

Other observations

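Class I presentation, which shows peptides of the cell's own proteins, was lower for 8 of 10 genes in HSF V30M, with a median log2 difference of -0.40. H2-K1, a classical class I heavy chain, had 244 FPKM in HSF V30M and 339 FPKM in HSF WT. Its partner B2m had 324 and 415 FPKM. Past 1.5-fold, 1 of the 10 genes was lower and 1 higher, beside 8.44% and 8.22% of all genes. Tap1 was the lower one, at 10.15 against 16.6 FPKM. Tapbp, the tapasin that loads peptides, was the higher one, at 120.4 against 75.2 FPKM. Tap2, the other gene that was higher, had a log2 difference of 0.09. Nlrc5, the class I counterpart of Ciita, had 5.91 and 8.33 FPKM.

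Costimulatory genes, which deliver the second signal beside class II, were low in both groups, with 2 of 3 lower in HSF V30M and a median of -0.14. Cd40 had 0.940 FPKM in HSF V30M and 2.03 FPKM in HSF WT, past 1.5-fold at -0.64 but on as few as 3 and 6 fragments. It was the only one of the 3 past the fold, beside 8.44% of all genes lower past it. Cd80 had 0.470 and 0.623 FPKM, and Cd86 had 2.10 and 1.56 FPKM. Of the genes by which Cd74 acts as a receptor at the cell surface, the ligand Mif had 60.5 and 67.6 FPKM, the partner Cd44 11.4 and 16.8 FPKM, and Cxcr4 8.18 and 11.7 FPKM, none past 1.5-fold.

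Among the remaining cell type lists, the lymph node genes had a median of -0.37. They ranged from Cxcl13, the attractant of B cells, at -1.45 to Ccl19 at -0.03. Of the 4 general leukocyte genes, 3 were lower and 1 higher, with a median of -0.65. Ptprc had 5.79 FPKM in HSF V30M against 12.4 FPKM in HSF WT, and Coro1a, the higher one, 26.8 against 26.0 FPKM. Endothelial genes had a median of -0.04 and fibroblast genes one of 0.07.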
